A study of Bos taurus with 90 samples.

Results

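The genes described here are the 200 that stood highest in mural granulosa cells (MGCs) over the cumulus cells (CCs) of the same bovine antral follicle. They were chosen from CPM, a gene's count scaled to the library total, in 26 follicles. A gene had to have a mean of at least 10 CPM in MGCs, and at least 4 times its mean in oocytes, which 2912 of the 27270 genes in the table did. These genes were ordered by the mean over follicles of the log2 ratio of MGC CPM + 1 to CC CPM + 1, and the first 200 are called members below, each referred to by its place in that order (its rank). The MGC and CC levels in these 26 follicles therefore chose the members, and their difference is given as a description with no test.

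MGCs line the wall of the antral follicle next to its basement membrane, and CCs enclose the oocyte inside it. Both derive from the granulosa cells of the earlier follicle. In the textbook account, MGCs respond to gonadotropins, make estradiol and send signals that keep the oocyte in meiotic arrest, whereas factors from the oocyte act on the CCs beside it and hold them to a different programme.

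The libraries came from ovaries of Bos taurus cows from a slaughterhouse. Each of 30 follicles, 10 small, 10 medium and 10 large, gave the innermost MGC layer, a small pool of CCs and a single denuded oocyte, 90 libraries in all. The breed, the age of the cows and the cow of each follicle are not given in the sources used here. Each size class drew on several cows and some follicles may share a cow, so p-values measure the spread between follicles. The 26 follicles were 8 small (3.1 to 3.8 mm), 8 medium (6.2 to 7.0 mm) and 10 large (9.6 to 11.6 mm). Library totals were 26739954 to 39266980 counts in MGCs, 8760201 to 40180192 in CCs and 8442938 to 53173320 in oocytes. MGCs were sequenced by a standard bulk protocol, whereas CCs and oocytes were amplified by SMART-seq2, a full-length cDNA method for little RNA. Cell type and protocol cannot be told apart in any difference between MGCs and CCs given here. In bulk samples, fewer cells of a type and less RNA per cell cannot be told apart either. The other 4 follicles were the 3 that the study removed for mapping rate or mitochondrial share, and a small follicle, S70701, whose CC column holds counts for 1066 genes only.

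The table lists genes by Ensembl identifier and does not pair them with names, and 0 of its identifiers matched the gene table used here. Members are therefore given by rank, with 4 identifiers in all. The planned lists of pathways and the markers of mural, cumulus, theca and other cells were not applied, so the labelled cell types were not checked against marker genes. Libraries are named by cell type (G for MGC, C for CC, O for oocyte), stage (S, M or L) and follicle.

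The members took a mean of 2.95% ± 1.42 (SD, n = 26) of MGC counts. They took 0.0793% ± 0.0505 of CC counts and 0.0480% ± 0.0126 of oocyte counts (n = 26 each). In MGCs the share ran from 0.851% in GM71002 to 5.75% in GS50502. It was 2.92% ± 1.37 in small (n = 8), 2.81% ± 1.40 in medium (n = 8) and 3.09% ± 1.598 in large follicles (n = 10), and the ranges of the stages overlapped. The highest share in a stage was 5.10 times the lowest in small, 5.20 times in medium and 5.66 times in large follicles. The spread among follicles of a stage was therefore larger than any difference between stage means.

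**Figure D1:**
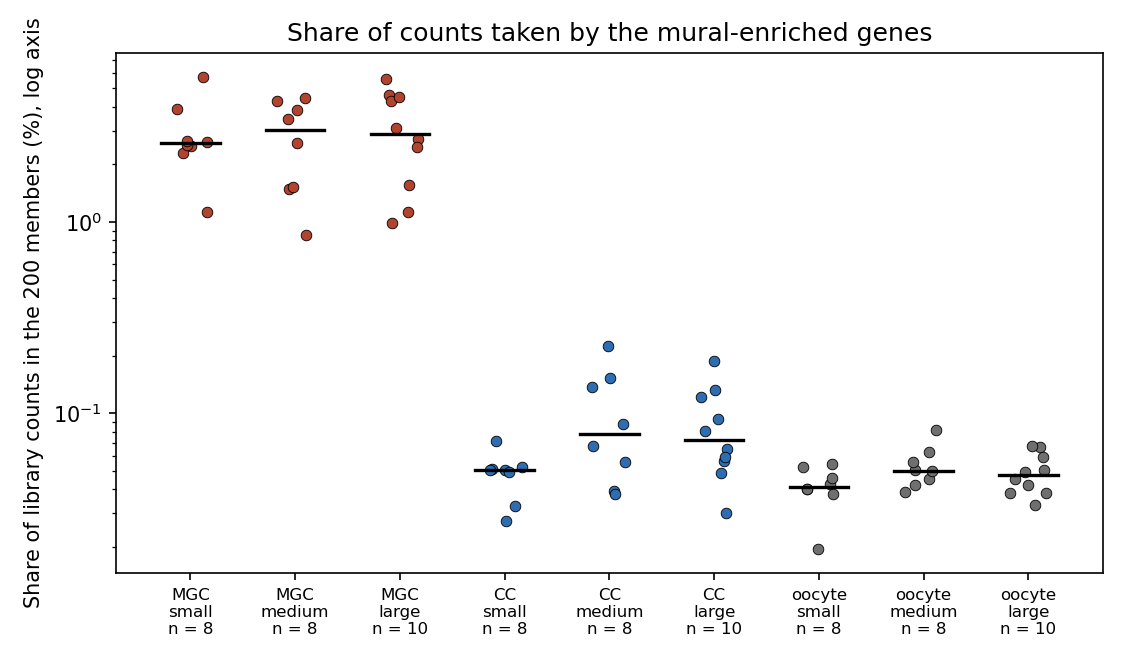
Share of each library's counts taken by the 200 members (log axis, %) for MGCs, CCs and oocytes of small, medium and large follicles; points are libraries (n below each group) and lines are medians. MGC libraries lie between 0.851% and 5.75%, CC libraries between 0.0272% and 0.223%, and the stages overlap within each cell type.

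Mean MGC levels of single members ran from 19.6 to 1655 CPM (median 61.8 CPM), and 67 members were above 100 CPM. Mean CC levels of the members ran from 0.0154 to 75.2 CPM (median 0.918 CPM). For 102 members the CC mean was below 1 CPM, and for 23 it was above 10 CPM. A member had no count in a median of 6 of the 26 CC libraries, 48 members had none in at least 13 of them, and 43 had counts in every one. A count of 3 equals 0.0747 to 0.342 CPM in these CC libraries, so a lower CC level in a single library rests on fewer than 3 counts.

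The members were low in oocytes by choice, with means of 0 to 32.9 CPM (median 0.595 CPM). In 24 of them no oocyte library held a count. The limit was set against the MGC level, and 74 members had a higher mean in oocytes than in CCs. The highest oocyte mean, 32.9 CPM, belonged to the member ranked 138, which had 317 CPM in MGCs and 17.4 CPM in CCs.

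The mean log2 ratio of MGC to CC, on the CPM + 1 scale, was 3.69 to 9.02 over the members (median 4.29), a fold of 12.9 to 521 (median 19.6). The members ranked 198, 199 and 200 had ratios of 3.696, 3.688 and 3.686, and the next 3 genes outside had 3.681, 3.679 and 3.679. The boundary of the list thus falls in a continuous series. In 136 members the MGC library was above the CC library in all 26 follicles. In 56 members the lowest of the 26 MGC libraries was also above the highest of the 26 CC libraries.

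The 2 leading members also had the 2 highest mean MGC levels, 1655 and 1435 CPM. The member ranked 1 had 42.2, 2209 and 3070 CPM as the lowest, median and highest MGC library in small follicles. The corresponding MGC values for this member were 670, 1670 and 3157 CPM in medium and 6.33, 1189 and 2508 CPM in large follicles. Its CC libraries ranged from 0 to 19.2 CPM with a mean of 2.59 CPM, and its oocyte mean was 0.0296 CPM. It was above its CC library in all 26 follicles although GL50505 held only 6.33 CPM.

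The member ranked 2 had an MGC mean of 1435 CPM, a CC mean of 1.17 CPM and no count in any oocyte library. Its MGC level was 3.03 CPM in GL50505 and 4102 CPM in GS50502, and its highest CC library held 7.46 CPM. The log2 ratios were 9.02 ± 2.08 (SD, n = 26) for rank 1 and 8.99 ± 2.30 for rank 2. The third, with an MGC mean of 974 CPM and a CC mean of 2.26 CPM, had 8.33 ± 2.37. Those 3 ratios differ by less than their spread over follicles.

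A high MGC level did not require a CC level near 0. The member ranked 130 had the fourth highest MGC mean, 1076 CPM, and the highest CC mean, 75.2 CPM, with CC libraries from 1.81 to 333 CPM. The member ranked 50 had 916 CPM in MGCs and 52.1 CPM in CCs. The mean log2 ratios of ranks 130 and 50 were 4.08 and 4.98.

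In MGCs the median member was at 2.25 CPM in GL50505, at 6.57 CPM in GS70501 and at 15.98 to 120 CPM in the other 24 libraries. In follicle L50505, 150 of the 200 members were above their CC library, with a median log2 ratio of 0.70. In follicle S70501, 180 were above it, with a median log2 ratio of 1.82. In each of the other 24 follicles 195 or more were above, and in 18 follicles all 200 were.

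The low level in GL50505 was not shared by all members. There 88 members were at 1 CPM or less and 74 were at 10 CPM or more, whereas in GL71802 all 200 were at 10 CPM or more. The 5 highest members of GL50505, ranks 121, 130, 174, 50 and 41, held 44.2% of the members' counts in that library. Rank 121 alone stood at 1958 CPM, its highest value in any of the 26 MGC libraries. Without both follicles, 185 of the 200 members were chosen again by the same steps.

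**Figure D2:**
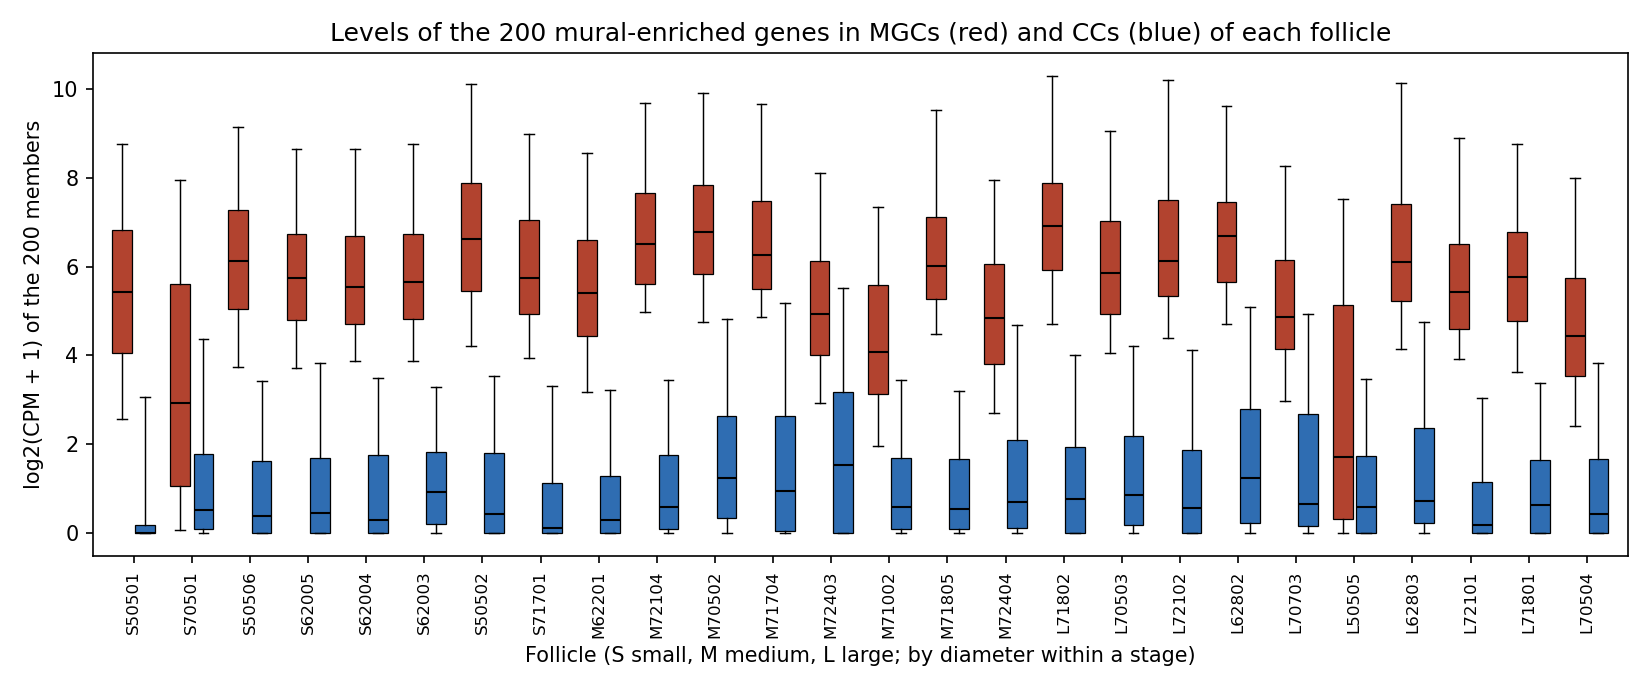
Levels of the 200 members, as log2(CPM + 1), in the MGC (red) and CC (blue) library of each of the 26 follicles, ordered by stage and diameter; boxes are quartiles with the median, and whiskers reach the 5th and 95th percentiles. MGC boxes lie above CC boxes throughout except in follicle L50505, where the median member was at 2.25 CPM in MGCs, and in S70501, at 6.57 CPM, where the boxes overlap.

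Across MGC libraries most members rose and fell with the summed level of the others. The likeness of each member to the group was measured as Pearson's r between its log2(CPM + 1) and the log2 of the summed CPM of the other members over the 26 MGC libraries, as a description. The libraries share totals to which all genes are scaled, and each r rests on the same 26 points. Abundant members weigh most in the sum. The 26 points include GL50505 and GS70501, and r was not computed without them. The median r was 0.74 over the members (from -0.50 to 0.94), against 0.20 over 8848 other genes with a mean MGC level of at least 10 CPM. An r of 0.5 or more was reached by 168 members (84.0%) and by 27.2% of the other genes, and an r of 0.8 or more by 60 members and by 3.68% of the others.

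The libraries with the lowest median were also the lowest for many single members. GL50505 was the lowest MGC library for 108 members (54.0%) and for 15.4% of the other genes. GL50505 and GS70501 were the 2 lowest libraries for 106 members (53.0%) and for 3.41% of the other genes. At the other end, GL71802 was the highest library for 43 members and GS50502 for 42.

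**Figure D3:**
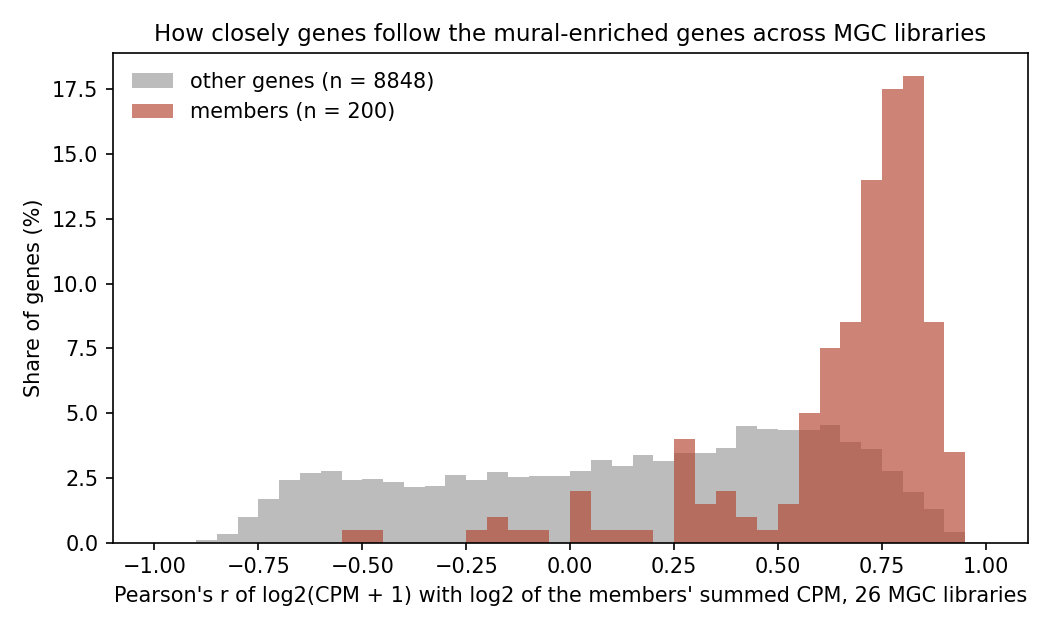
Distribution of Pearson's r between a gene's log2(CPM + 1) and the log2 of the members' summed CPM over the 26 MGC libraries, as shares (%) of the 200 members (red, each left out of its own sum) and of 8848 other genes with at least 10 CPM in MGCs (grey). The members gather at high r with a median of 0.74, and 7 of them lie below 0.

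The follicle-to-follicle spread of the members was wide. Within stages, the SD of log2(CPM + 1) over MGC libraries had a median of 1.49 for the members and 0.49 for the 8848 other genes. The highest MGC library exceeded the lowest by a median of 68.0-fold on the CPM + 1 scale (2.16-fold to 1612-fold). The largest within-stage SDs were 3.76, 3.03 and 2.97 for ranks 188, 42 and 157. Rank 188 ran from 0.187 CPM in GM71002 to 912 CPM in GM71805, and rank 42 from 0.240 CPM in GS62003 to 1907 CPM in GL72102. The lowest libraries of ranks 188 and 42 were not GL50505 or GS70501. For 106 of the 200 members, however, GL50505 and GS70501 were the 2 lowest MGC libraries, against 3.41% of the other genes. The SDs and folds of the members were not computed without these libraries.

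A minority of members followed the summed level less closely or not at all, with r between 0 and 0.5 in 25 and below 0 in 7. Those 7 were ranks 35, 49, 92, 111, 116, 156 and 184, and rank 116 had the lowest r, -0.50, with its highest MGC level, 467 CPM, in GL50505. The members with the smallest within-stage SDs, 0.26 to 0.28 on the log2 scale, were ranks 49, 64 and 127. Rank 49 stayed between 28.9 and 64.3 CPM over all 26 MGC libraries (mean 39.3 CPM), against a CC mean of 0.275 CPM. Rank 127 stayed between 85.7 and 199 CPM, against a CC mean of 6.84 CPM.

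The 3 follicles that the ranking did not use gave a separate set of MGC and CC libraries. They are a small follicle, S70702, and 2 medium follicles, M71804 and M71001, and the study removed the first for the mapping rate of its CCs and the others for their oocytes. All 200 members were above the CC library in each of them, with median log2 ratios of 3.35, 4.84 and 4.31. The median member stood at 49.7 to 72.5 CPM in the 3 MGC libraries and at 0.575 to 6.16 CPM in the 3 CC libraries. The highest of those CC medians lies above the 0 to 1.87 CPM of the 26 CC libraries of the ranking.

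With edgeR's quasi-likelihood test and the follicle as a block, 176 of the 200 members were called higher in MGCs and 0 lower. A call here and below is an adjusted p under 0.05 (Benjamini-Hochberg over all genes tested) with a fold above 2. The percentage of all 15021 genes tested that was called higher was 7.15, against 5.59 called lower and 12.7 in either direction. The log2 difference was 2.08 to 13.26 over the members, with a median of 5.18 against -0.03 over all genes tested. The 24 members not called had adjusted p-values of 0.0518 to 0.233. Leaving out 1 follicle gave 122 to 188 calls among the members, against 3.49% to 8.44% of all genes tested, in either direction. Leaving out the block gave 129, and the share of all genes called was then also below 12.7%.

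In these 3 follicles, S70702, M71804 and M71001 in that order, the member ranked 1 had 2341, 1130 and 753 CPM in MGCs. In their CCs it had 24.5, 0.297 and 0.128 CPM. Each MGC library exceeded its CC library by far, at a log2 difference of 10.23 (SE 1.47, edgeR adjusted p = 0.0117). The member ranked 2 had 1713, 1133 and 757 CPM in MGCs, and 7.30, 0.0849 and 0.0255 CPM in CCs, the last 2 from 2 counts and 1 count. Its log2 difference, which with so few CC counts depends on the prior count of the fit, was 11.41 (SE 1.56, edgeR adjusted p = 0.0107).

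Not every member held the margin of the ranking. In S70702 the median log2 ratio of the members, 3.35, was below the lowest mean ratio of any member in the ranking, 3.69. The member ranked 180 had 53.9, 21.2 and 1.32 CPM in MGCs of the 3 follicles, in the same order, and 4.50, 6.41 and 0 CPM in CCs. It was not called (log2 difference 3.33, SE 0.92, edgeR adjusted p = 0.0541). The member ranked 121 was called, but its CC level in M71001 was 307 CPM against 885 CPM in MGCs, a higher CC value than in any of the 26 CC libraries of the ranking.

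**Figure D4:**
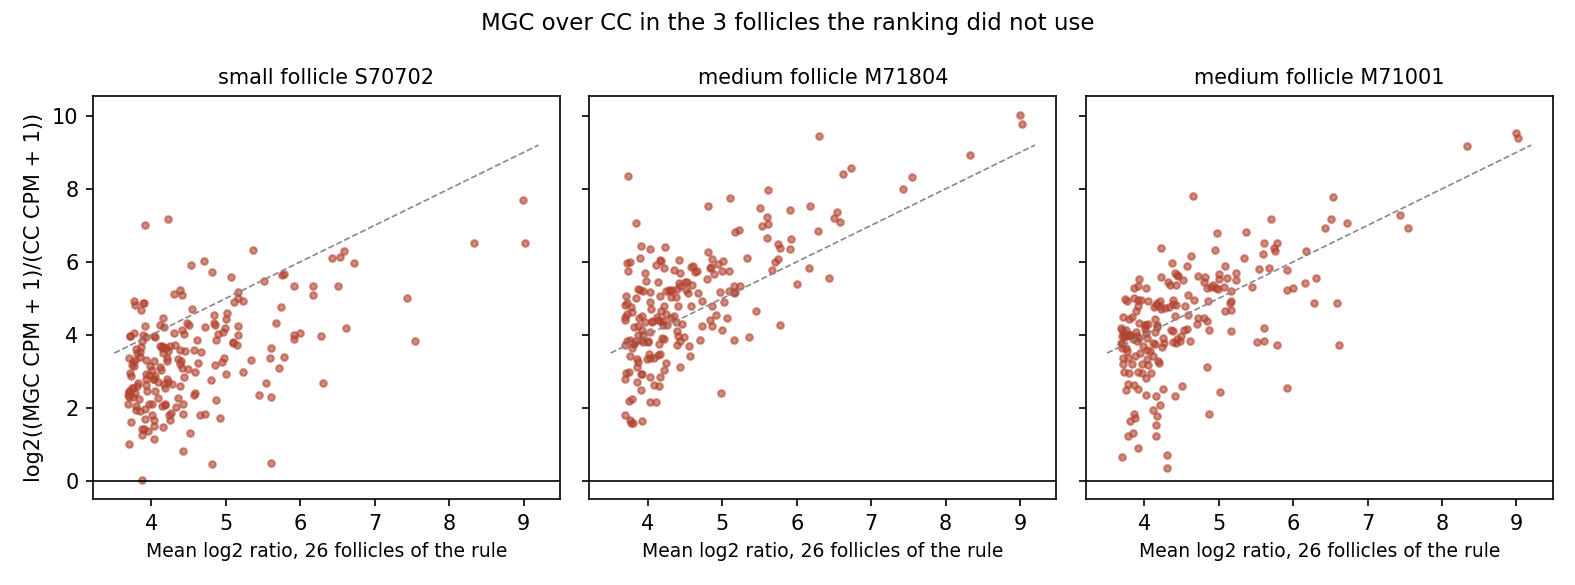
Log2((MGC CPM + 1)/(CC CPM + 1)) of the 200 members in each of the 3 follicles the ranking did not use (vertical axis) against their mean ratio in the 26 follicles that it used (horizontal axis); the dashed line marks equal values and the solid line a ratio of 0. All 200 points lie above 0 in each follicle, with medians of 3.35 in S70702, 4.84 in M71804 and 4.31 in M71001.

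Whether the members differed between follicle stages was tested within each cell type, a comparison the ranking did not use. All 200 members passed the filter on low counts, a CPM above 1 in at least 15 libraries of any one cell type. In MGCs, 1 member was called from small to medium follicles, and it was lower, against 0.283% of the 14838 genes tested in either direction and 0.263% lower. From medium to large follicles 0 were called, against 0.0%. At an unadjusted p under 0.05 these edgeR counts were 9 and 10 of 200 members (4.5% and 5.0%), against 12.7% and 10.8% of all genes tested. DESeq2 called 2 and 1 members, against 1.51% and 0.425% of all genes. From small to large follicles 6 members were called, 2 higher and 4 lower, against 3.13% of all genes tested (1.01% higher, 2.12% lower). The median log2 difference of the members was 0.07, 0.02 and 0.11 in the 3 comparisons and lay near 0 over all genes tested. With a covariate for the identifier prefix, the 3 leading digits of a follicle's name, the members' medians were 0.57, -0.67 and -0.14, and 142, 29 and 84 of the 200 differences were positive. The meaning of the prefix is not given in the sources used here. In the follicles of the ranking, only prefixes 505 and 705 hold both small and large ones. The only large follicle of 505 is L50505 and the only small one of 705 is S70501. Those 2 had the lowest member medians in MGCs, 2.25 and 6.57 CPM. Each direct small-to-large comparison within a prefix thus includes 1 of them, which limits all results with this covariate. Without it, the 6 of 200 members are close to the share among all genes.

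The 2 members higher in large follicles were ENSBTAG00000013755 (rank 121) and ENSBTAG00000019866 (rank 18). ENSBTAG00000013755 had 124, 195 and 422 CPM as its lowest, median and highest MGC library in small follicles. It had 178, 354 and 464 CPM in medium and 424, 567 and 1958 CPM in large follicles. The lowest large follicle was above the highest small one, if barely, while the medium follicles overlapped both. The log2 difference from small to large was 1.92 (SE 0.33, edgeR adjusted p = 0.00110), and it was called under all 7 alternatives, with log2 differences of 1.69 to 2.40.

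ENSBTAG00000019866 had 186, 497 and 1202 CPM in MGCs of small, 92.0, 816 and 1563 CPM of medium and 194, 1719 and 5070 CPM of large follicles (lowest, median and highest). Large follicles overlapped the other stages at the low end and reached higher values at the top. The log2 difference from small to large was 1.85 (SE 0.54, edgeR adjusted p = 0.0459). With the prefix as a covariate it turned to -0.28 (adjusted p = 0.809), without the filter on low counts it just missed the threshold (adjusted p = 0.0508), and with the 10 follicles the study called healthy it was 2.47 (adjusted p = 0.0850).

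The members lower in large follicles were ranks 74, 154, 169 and 180. ENSBTAG00000055045 (rank 169) had 2.24, 54.3 and 78.1 CPM in MGCs of small, 7.65, 33.2 and 55.9 CPM of medium and 0.106, 6.21 and 38.1 CPM of large follicles (lowest, median and highest). All small follicles but GS70501, which held 2.24 CPM, were above every large follicle (43.1 CPM or more against at most 38.1 CPM). Its log2 difference was -2.30 (SE 0.62, edgeR adjusted p = 0.0283), and with the prefix as a covariate -2.40 (adjusted p = 0.560).

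ENSBTAG00000047231 (rank 180) had 10.2, 83.8 and 113 CPM in MGCs of small, 17.3, 36.6 and 76.6 CPM of medium and 0.266, 18.8 and 43.3 CPM of large follicles. Its medians fell from stage to stage and its ranges overlapped. The log2 difference from small to large was -2.06 (SE 0.55, edgeR adjusted p = 0.0266), and with the prefix as a covariate -2.47 (adjusted p = 0.347). Ranks 74 and 154 differed by -1.37 (SE 0.36, edgeR adjusted p = 0.0258) and -2.03 (SE 0.55, edgeR adjusted p = 0.0312), and with that covariate by -1.31 and -2.16, differences of about the same size that were not called (adjusted p = 0.0774 and 0.471). Rank 74 was also not called with the 10 healthy follicles (adjusted p = 0.205).

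The call from small to medium follicles was rank 141, which had 26.3, 62.0 and 164 CPM in small and 12.2, 23.5 and 33.6 CPM in medium follicles. It fell by 1.87 on the log2 scale (SE 0.36, edgeR adjusted p = 0.0145) and stood between, at 20.3, 43.3 and 78.0 CPM, in large follicles. It was not called with all 30 follicles (adjusted p = 0.0951) or with the 10 that the study called healthy, described below (adjusted p = 0.0701). The 7 members called in MGCs had an r with the other members of 0.01 to 0.51 (median 0.30), below the median of 0.74 over all members.

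**Figure D5:**
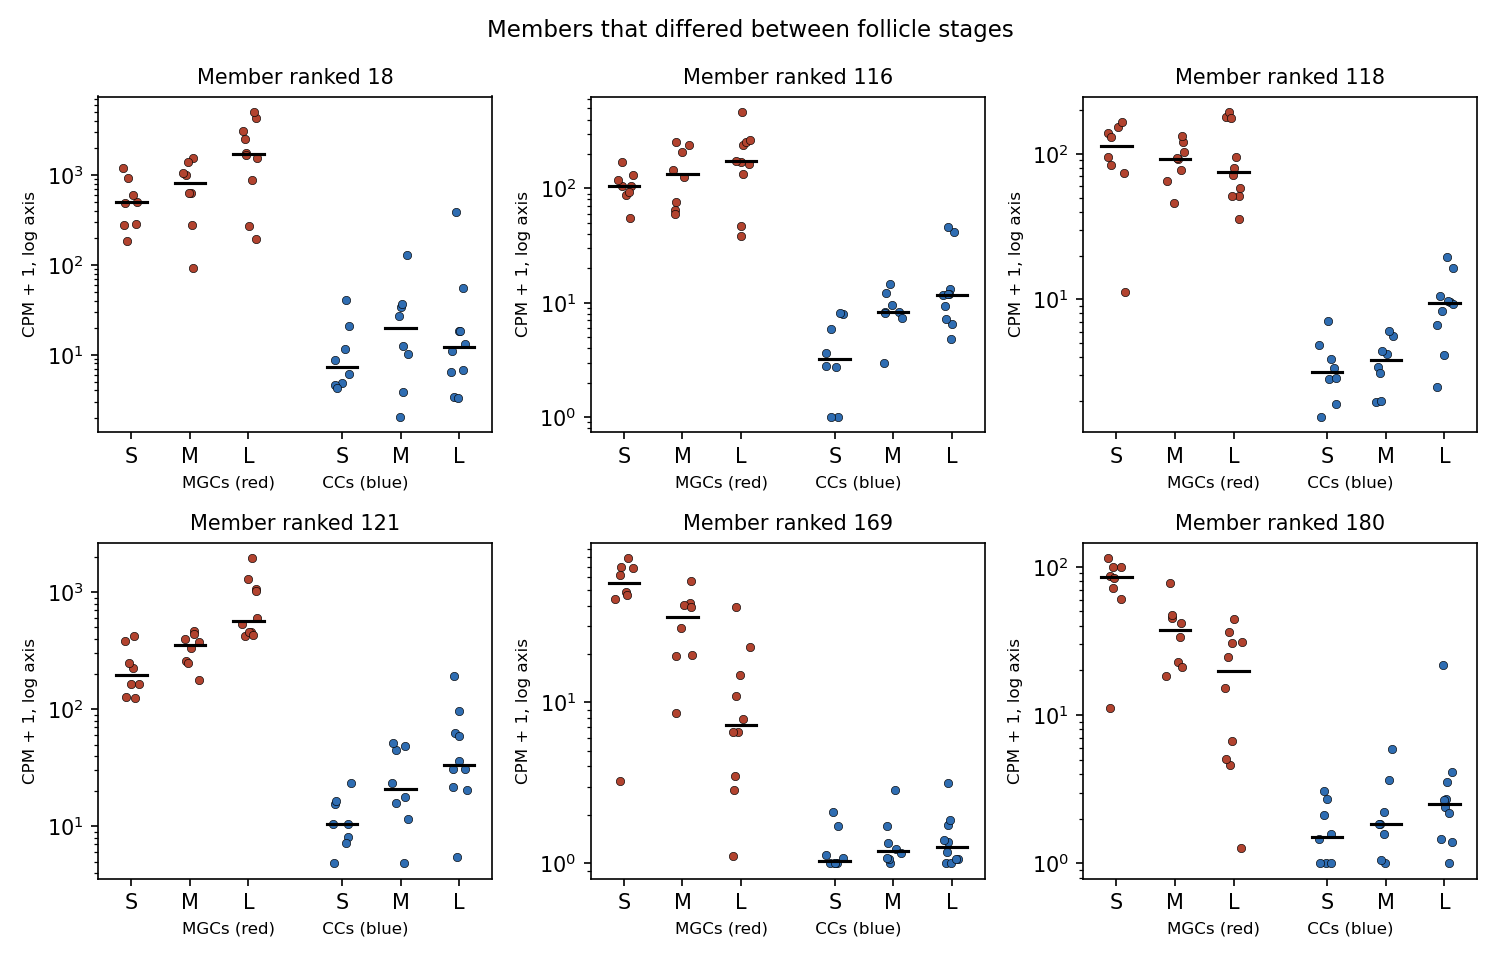
CPM + 1 (log axis) of 6 members called between small and large follicles, in MGCs (red) and CCs (blue) of small (S), medium (M) and large (L) follicles; points are libraries and lines medians. In MGCs, ranks 18 and 121 have medians of 497 and 195 CPM in small and 1719 and 567 CPM in large follicles, ranks 169 and 180 fall from 54.3 and 83.8 to 6.21 and 18.8 CPM, and ranks 116, 118 and 121 are higher in CCs of large than of small follicles.

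The stage comparison in MGCs depended on which follicles entered. The study called 10 follicles healthy, from MGC levels of a few genes in these same libraries: 3 small, 3 medium and 4 large. With these alone, 19 members were called from small to medium, all lower, 28 from medium to large (26 higher) and 44 from small to large (38 lower). Of all genes tested in these follicles, 1.66% were called from small to medium (1.08% lower), 7.96% from medium to large (3.3% higher, 4.66% lower) and 8.74% from small to large (3.79% higher, 4.95% lower). The median log2 difference of the members became -1.22, 0.60 and -0.33. The members' share of MGC counts was 2.28% to 2.61% in the 3 small, 0.851% to 1.52% in the 3 medium and 1.12% to 2.699% in the 4 large follicles of that set. In the other 5 medium follicles it was 2.58% to 4.43%, without overlap, and in the other 5 small and 6 large follicles it was 1.13% to 5.75% and 0.984% to 5.57%. The labels do not give this grouping and no test was made between the sets. All 3 small follicles of the set have the prefix 620 and 2 of the 3 medium ones the prefix 724, and no prefix occurs in more than 1 of its stages, so stage and prefix cannot be told apart there. Without follicles L50505 and S70501, which are not in the set, 14 members were called from small to large (3 higher, 11 lower), against 2.76% of all genes tested (0.809% higher, 1.96% lower).

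In CCs, where the members were low, edgeR called 0 between small and medium follicles and 0 between medium and large ones, against 0.0% of the 15033 genes tested in both. At an unadjusted p under 0.05 these were 37 and 20 of 200 members (18.5% and 10.0%), against 12.0% and 7.69% of all genes tested. DESeq2 called 4 and 0 members, against 0.239% and 0.0665% of all genes. From small to large follicles 3 were called, all higher, against 1.23% of all genes called higher and 3.3% called in either direction. The median log2 difference of the members was 0.75 from small to medium and 0.75 from small to large, with 155 and 148 of the 200 differences positive, and that of all genes tested was 0.07 and 0.11. The members passed the filter through MGCs and many are near the floor in CCs, so these medians are not like for like. With all 30 follicles, among them S70701 with its partial CC column, the members' medians were 0.20 and 0.004, with 110 and 101 positive. The members' share of CC counts was 0.0481% ± 0.0135 in small (n = 8), 0.1002% ± 0.0656 in medium (n = 8) and 0.0875% ± 0.0477 in large follicles (n = 10). The CC stages overlapped in that share.

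The members higher in CCs of large follicles were ranks 116, 118 and 121. ENSBTAG00000013755 (rank 121) had 3.83, 9.46 and 22.5 CPM in CCs of small, 3.87, 19.7 and 50.3 CPM of medium and 4.49, 32.6 and 193 CPM of large follicles (lowest, median and highest). Its log2 difference in CCs was 2.02 (SE 0.53, edgeR adjusted p = 0.0382) and it was called upward in both cell types, but with the prefix as a covariate the CC difference was 0.35 (adjusted p = 0.917).

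Rank 116 had 0, 2.205 and 7.18 CPM in CCs of small and 3.81, 10.8 and 45.1 CPM of large follicles, a log2 difference of 2.41 (SE 0.69, edgeR adjusted p = 0.0473). Rank 118 had 0.552, 2.14 and 6.08 CPM in small and 1.48, 8.48 and 18.4 CPM in large follicles, a log2 difference of 1.76 (SE 0.48, edgeR adjusted p = 0.0399). Both sets of CC ranges overlapped. None of the 3 was called with the 10 follicles the study called healthy, with all 30 follicles or with the prefix as a covariate (adjusted p = 0.141 to 0.917). Rank 118 was also not called without follicles L50505 and S70501 (adjusted p = 0.0545) or without the filter on low counts (adjusted p = 0.0576).

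Whether the difference between MGCs and CCs itself changed with stage was tested as an interaction of cell type and stage with the follicle as a block. With edgeR 0 members were called in each of the 3 comparisons, against 0.00665% of 15043 genes from small to medium, 0.0% from medium to large and 0.525% from small to large. At an unadjusted p under 0.05 the counts were 29, 11 and 18 of 200 members (14.5%, 5.5% and 9.0%), against 7.69%, 6.63% and 17.5% of all genes tested. DESeq2 called 2, 0 and 11 members, against 0.964%, 0.386% and 8.91% of all genes. The median change in the log2 difference was -0.72, 0.18 and -0.63 for the members, against -0.18, 0.03 and -0.17 over all genes tested. The change was positive in 52, 116 and 67 of the 200 members. As in the CC comparison, the members passed the filter through MGCs and many are near the floor in CCs. Their shares and medians here are therefore not like for like with those of all genes. Simulated data held no follicle effect, and the genes changed in them were not matched to the members' low CC levels. In them the small-to-large fit of this interaction recovered 100 of 200 genes changed 4-fold. The 0 calls therefore do not show that no member changed.

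The largest of these changes among the members already described were in ranks 180 and 169. From small to large follicles the MGC-to-CC difference of rank 180 changed by -4.07 (SE 1.34, edgeR adjusted p = 0.133) and that of rank 169 by -3.43 (SE 1.47, edgeR adjusted p = 0.223), neither past the threshold. For rank 121, which was higher in large follicles in both cell types, the change was -0.06 (SE 0.75, edgeR adjusted p = 0.998). With an SE of that size, a change of 2-fold in the MGC-to-CC difference of this gene could not be told from none.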

How the data were processed

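RNA-seq counts of MGCs, CCs and oocytes of 30 follicles were used, and all 90 columns were mapped to samples by their titles. According to the methods, the authors aligned trimmed reads with STAR to ARS-UCD1.2, kept uniquely mapping reads and counted them over exons with featureCounts. The submitters' processing notes name HISAT2 2.2.1 instead, and the deposited counts also carry HISAT2 in their name. The difference from the methods was not settled. The deposited table holds raw, not normalized, counts for each gene. Amplified libraries carry no molecular identifiers, so floors cover counting error only.

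The members and lists were chosen with earlier results of these data known. CPM used a pseudocount of 1 on the log2 scale. Stage comparisons were fitted within each cell type over the 26 follicles with edgeR 4.0.16 (TMM, glmQLFit, glmQLFTest) in R 4.3.3, and adjusted over all genes tested. MGCs and CCs of a follicle were paired by follicle, as the study sampled them, through a follicle block. The fits were tested on simulated data. Alternatives were DESeq2 1.42.0, its size factors, no filter, all 30 or only the 10 healthy follicles, the identifier prefix as a covariate, other list lengths, other rankings and single follicles left out. Planned named genes, marker and pathway lists needed gene symbols and were not applied. In their place, members were named by rank: the leading ones, those called between stages, the highest in MGCs, CCs or oocytes, and those with the largest or smallest spread.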

Additional observations from a re-analysis of the deposited data

Results flagged for a closer look

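Each of the 11 members described by stage was examined for a library far from the rest of its stage, in MGCs and in CCs, with Dixon's criterion at the 5% level, and so was the share of counts in each cell type and stage. Of 75 groups, 18 held such a library, none of them for the share of counts. In 17 of the 18 it was the highest library. The level of 5% of groups by chance holds for normally distributed values, which CPM near 0 in CCs are not, so it gives no chance value for these 18.

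In CCs, CM72403 was far above the other medium follicles for rank 1 (19.2 CPM), rank 18 (129 CPM), rank 74 (5.09 CPM), rank 141 (6.45 CPM) and rank 169 (1.87 CPM). CM70502 was far above them for rank 2 (2.69 CPM) and rank 154 (1.45 CPM). Among small follicles, CS62003 stood out for rank 1 (16.1 CPM) and rank 2 (7.46 CPM), CS70501 for rank 18 (39.7 CPM) and CS62004 for rank 74 (12.7 CPM). Among large follicles, CL62802 stood out for rank 18 (387 CPM) and rank 121 (193 CPM), CL70503 for rank 154 (1.68 CPM), CL70504 for rank 169 (2.16 CPM) and CL71801 for rank 180 (20.6 CPM).

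In MGCs, GL50505 was far above the other large follicles for rank 116 (467 CPM), and GS70501 was far below the other small follicles for rank 169 (2.24 CPM against 43.1 CPM in the next). No cause of these values was tested.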

How the results depend on the processing

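Of 101 recounts of the members called, 75 stayed within 1.5 times the reported count and 26 did not. A recount of 0 where 0 was reported was taken as staying, and lists of other lengths were among the recounts. For stage comparisons with members called, 5 of 10 recounts stayed for MGCs from small to medium. From small to large, 4 of 10 stayed in MGCs and 4 of 10 in CCs. Where no value below or in the report shows a cause, the cause was not tested. Counts are given for small to medium, medium to large and small to large follicles. In MGCs (reported 1, 0 and 6), DESeq2 gave 2, 1 and 10 (the last 5.0% of members, 5.07% of all genes), all 30 follicles gave 0 from small to medium, the 10 healthy follicles gave 19, 28 and 44, and the identifier prefix as a covariate gave 15 from small to large (7.5% of members, 8.05% of all genes). Without follicles L50505 and S70501, chosen after seeing the data, 14 were called from small to large. Lists of 100 and 400 members gave 0 and 2 from small to medium and 2 and 11 from small to large. In CCs (reported 0, 0 and 3), DESeq2 gave 4 from small to medium and 14 from small to large (7.0% of members, 8.65% of all genes), the list of 400 gave 7 from small to large, and 0 were called there with 100 members, all 30 follicles, the 10 healthy follicles or the prefix. For the change in the MGC-to-CC difference 0 were reported each time. DESeq2 gave 2 from small to medium (1.0% of members, 0.964% of all genes) and 11 from small to large (5.5% and 8.91%). The healthy follicles gave 2 from medium to large (1.0% of members, 1.42% of all genes) and 3 from small to large (1.5% and 0.801%). The prefix gave 6 from small to large (3.0% of members, 1.08% of all genes). Without the follicle block, 1 was called from small to large (0.5% of members, 2.55% of all genes). Pairing by follicle changed no other count of that interaction.

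In the 3 follicles outside the ranking, 122 to 188 members were called with 1 follicle left out and 129 without the block. The share of all genes called was below the 12.7% of the reported fit in each of these settings. Rank 18 turned from 1.85 to -0.28 in MGCs with the prefix as a covariate. Of the 200 members, 139 and 140 were chosen again with pseudocounts of 0.1 and 5, and 180 to 194 with TMM-scaled CPM, the median or 29 follicles. Low CC levels limit the ratio: 102 members had a CC mean below 1 CPM, where the ratio depends on the pseudocount.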
